A study of Mus musculus with 6 samples.

Results

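The genes described here make, move, use or destroy retinoic acid. They are 9 genes of 18194 represented on the arrays: Aldh1a1, Aldh1a2, Aldh1a3, Cyp1b1, Dhrs3, Cyp26b1, Rbp4, Rarb and Rarres2. They were chosen by name for their place in the pathway. Every probe set annotated with exactly 1 of these symbols was taken, which gave 15 probe sets, and the brightest of them on average stands for its gene. Affymetrix arrays measured RNA of sorted left ventricular cells. The mice were Black Swiss males, 8 to 10 weeks old, studied 1 week after transverse aortic constriction (TAC), a narrowing of the aorta that loads the ventricle with pressure, or after a sham operation. The 6 groups are fibroblasts traced by Tie2-Cre from TAC and from sham mice, fibroblasts not traced by Tie2-Cre from TAC and from sham mice, and endothelial cells from TAC and from sham mice. Each group has 1 array, 3 mice had each surgery, and pooling of mice and sharing of hearts between the arrays of a surgery are both unstated in the labels. Tie2-Cre is Cre recombinase under the promoter of Tek, so tracing marks any cell with a past or present active Tek promoter, blood lineages included. The sources used here give neither the sorting gates nor the reporter allele.

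Retinol, or vitamin A, travels in blood bound to the carrier RBP4. Inside a cell it is oxidised to retinaldehyde, a step that the reductase DHRS3 runs backwards, and retinaldehyde dehydrogenases of the ALDH1A family then make retinoic acid. CYP1B1 can also oxidise retinol and retinaldehyde, beside oestrogens and aromatic hydrocarbons. Retinoic acid binds the nuclear receptors RAR and RXR, which act at paired hexamers in DNA, and CYP26 enzymes break it down. In the heart the pathway is best known from development, where the epicardium makes retinoic acid through ALDH1A2.

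Values are in log2 units of intensity, both levels and differences, except where a fold is named. Levels of different genes are not set against each other because each probe set has its own brightness. The defining markers followed the labelled cell types: by the fit described below 7 of 15 fibroblast markers were called for fibroblasts, 14 of 15 endothelial markers were called for endothelial cells, and 0 of either list were called the other way. The endothelial TAC array stood apart: the fibroblast markers had a median level of 11.05 on it, against 7.63 on the endothelial sham array, and 13 of the 15 were at least 2-fold higher there, with differences between 0.76 and 5.26. The bacterial spike-in control probe sets averaged 10.93 to 11.49 on the fibroblast arrays and 12.39 to 12.54 on the endothelial ones. This technical difference ran along with cell type, and its part in the cell type results was not tested. The untraced TAC array had the widest gap between 3′ and 5′ Gapdh probe sets, 2.10 against 1.12 to 1.36 on the other arrays, and the lowest 18S signal, 13.67 against 14.44 to 14.76.

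The first comparison asks which cell type carries each gene. Cyp1b1 stood 49.6-fold, Aldh1a1 39.9-fold, Rbp4 19.1-fold, Rarres2 10.2-fold and Aldh1a3 2.61-fold higher in fibroblasts, and these 5 passed the test. Aldh1a2 stood 15.5-fold higher in fibroblasts, while Cyp26b1 stood 4.95-fold and Dhrs3 2.03-fold higher in endothelial cells, and none of these 3 passed. Rarb lay below the median of its array on all 6 arrays and was not tested. In these sorted bulk samples fewer cells of a kind and less RNA per cell cannot be told apart.

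The test was limma on all 12257 genes above the median of their array on at least 1 array, with 2 values per cell type, 1 per surgery, after the traced and untraced arrays of a surgery had been averaged. A call needed a 2-fold difference or more and an adjusted p (Benjamini-Hochberg, over all 12257 genes) under 0.05. As an alternative, the 6 arrays were entered singly. That alternative counts the arrays of a surgery as separate samples although they may share hearts. Of the 9 genes 5 were called higher in fibroblasts, against 11.5% of all genes tested, and 0 were called lower, against 6.5% (limma, 1 gene at an unadjusted p under 0.05). The count on the fibroblast side was also 5 when the filter on dim genes was dropped. Over all 9 genes, with no filter, the median difference was 3.35, against 0.02 over all 18194 genes. Within a surgery, with no test, 6 of the 9 were at least 2-fold higher in fibroblasts after TAC, where 18.1% of genes were, and the same number at sham, where 23.8% were. At least 2-fold lower were 0 after TAC, where 9.79% of genes were, and 2 at sham, where 10.2% were.

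**Figure D1:**
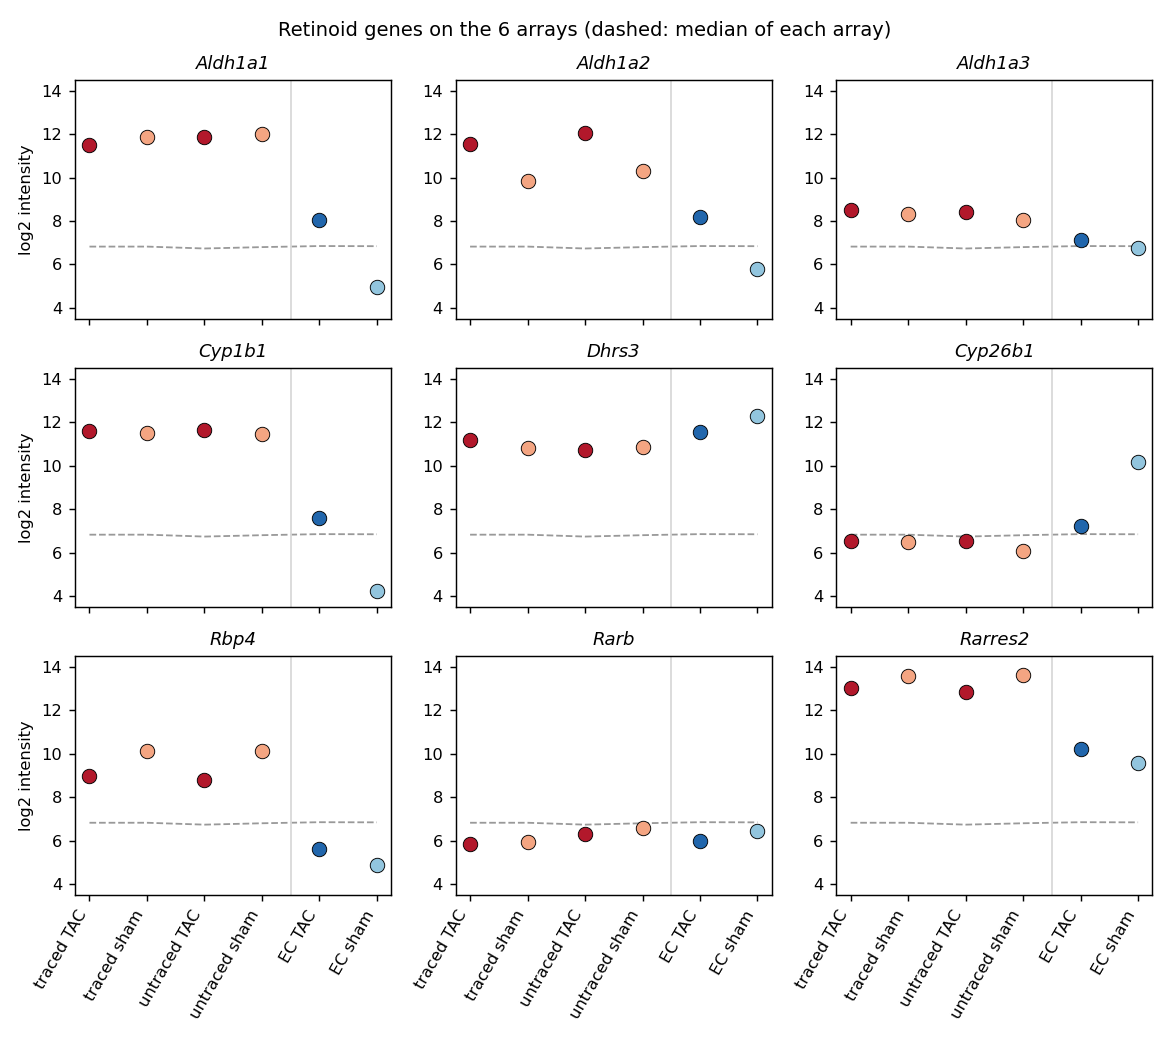
Log2 probe set intensity (y axis) of the 9 genes on each of the 6 arrays (x axis, with EC for endothelial cells), 1 point per array, with the median of each array as a dashed line. Aldh1a1, Cyp1b1, Rbp4 and Rarres2 lie higher on every fibroblast array than on either endothelial array, Cyp26b1 is highest on the endothelial sham array at 10.19, and Rarb lies below the dashed line throughout.

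Rbp4 encodes the carrier that brings retinol to cells (chr19:38116620-38125321, GRCm38.p6). It stood at 8.96 in traced and 8.77 in untraced fibroblasts after TAC, against 10.10 and 10.13 at sham. On the endothelial arrays it stood at 5.61 after TAC and 4.87 at sham, below the median of those arrays. The fibroblast and endothelial levels did not overlap, and the 2 fibroblast TAC arrays lay below both fibroblast sham arrays. The cell type difference was 4.25 ± 0.526 (SE, limma adjusted p = 0.0135). It no longer passed when the endothelial sham array was left out (3.88, limma adjusted p = 0.0566).

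Dhrs3 encodes a reductase that returns retinaldehyde to retinol and thereby limits retinoic acid synthesis (chr4:144892534-144928209). Its level was 11.18 in traced and 10.74 in untraced fibroblasts after TAC, against 10.80 and 10.87 at sham. Endothelial cells had 11.56 after TAC and 12.27 at sham, both above every fibroblast array. The difference of -1.02, with a standard error of 0.320, did not pass (limma adjusted p = 0.0951). It passed with surgery as a block (limma adjusted p = 0.0485), with the 6 arrays entered singly (0.0173) and without the endothelial TAC array (-1.38, limma adjusted p = 0.0418), and it was -0.67 without the endothelial sham array (limma adjusted p = 0.191).

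Aldh1a1, the first of the retinaldehyde dehydrogenases (chr19:20492583-20643463), stood at 11.51 in traced and 11.88 in untraced fibroblasts after TAC, against 11.86 and 11.995 at sham. In endothelial cells it was 8.04 after TAC and 4.95 at sham. All 4 fibroblast arrays lay within 0.48 log2 units of each other, and the endothelial arrays lay far apart, so nearly all of the spread was endothelial. The cell type difference was 5.32 ± 1.05 (SE, limma adjusted p = 0.0345), made up of 3.65 after TAC and 6.98 at sham. The closely related Aldh1a7 lay between 3.38 and 4.88 on the 6 arrays, below their medians.

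Aldh1a2 encodes the enzyme that makes most retinoic acid in the embryo (chr9:71215789-71296243). Among the ALDH1A members it was the gene whose fibroblast level differed at least 2-fold between surgeries. Traced fibroblasts had 11.55 and untraced fibroblasts 12.06 after TAC, against 9.84 and 10.32 at sham. Endothelial cells had 8.20 after TAC and 5.78 at sham. Every fibroblast array lay above both endothelial arrays, and both fibroblast TAC arrays lay above both sham arrays. The cell type difference of 3.95, with a standard error of 1.00, did not pass (limma adjusted p = 0.0616), and it includes the difference between surgeries within each cell type. With surgery as a block it passed (limma adjusted p = 0.000915), as it did with the 6 arrays entered singly (0.0112). Without the endothelial sham array it was 2.74 (limma adjusted p = 0.153). It passed without the endothelial TAC array (5.16, limma adjusted p = 0.0374) and without the traced sham array (4.07, limma adjusted p = 0.0488).

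Aldh1a3, the third enzyme of the family (chr7:66390892-66427477), stood at 8.52 in traced and 8.40 in untraced fibroblasts after TAC, against 8.31 and 8.07 at sham. The endothelial arrays had 7.11 after TAC and 6.78 at sham, near the median of those arrays. The difference was 1.38 ± 0.257 (SE, limma adjusted p = 0.0305) and did not pass without the endothelial sham array (1.22, limma adjusted p = 0.0892). The other probe sets of Aldh1a3 disagreed in size, with 2.81 for one and 0.50 for the other.

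Cyp1b1, a cytochrome P450 with retinol, retinaldehyde and oestrogen among its substrates (chr17:79706940-79715061), stood at 11.58 in traced and 11.65 in untraced fibroblasts after TAC, against 11.50 and 11.44 at sham. The endothelial arrays had 7.58 after TAC and 4.24 at sham. As with Aldh1a1, the fibroblast arrays lay close together and the endothelial arrays apart. The difference was 5.63 ± 1.13 (SE, limma adjusted p = 0.0357). A further probe set gave 4.47, and the last, which lay below the array medians, gave 0.36.

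Cyp26b1, an enzyme that degrades retinoic acid (chr6:84571414-84593908), was, like Dhrs3, higher on both endothelial arrays than on every fibroblast array. It stood at 6.54 in traced and 6.52 in untraced fibroblasts after TAC, against 6.47 and 6.09 at sham, all below the array medians. The endothelial arrays had 7.23 after TAC and 10.19 at sham. The difference of -2.31, with a standard error of 1.00, did not pass (limma adjusted p = 0.181), and it did not pass with surgery as a block (0.0602). It rests on the endothelial sham array: without that array it was -0.83 (limma adjusted p = 0.158), and without the endothelial TAC array -3.79 (limma adjusted p = 0.011). It also passed with the 6 arrays entered singly (limma adjusted p = 0.0442).

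Rarres2 encodes chemerin, a secreted chemoattractant and adipokine first cloned as a retinoid-responsive gene (chr6:48569696-48572845). It stood at 13.01 in traced and 12.85 in untraced fibroblasts after TAC, against 13.57 and 13.63 at sham. The endothelial arrays had 10.23 after TAC and 9.59 at sham. No fibroblast array overlapped with an endothelial array. After TAC the endothelial difference from sham was 0.64, and -0.18 by the dimmer probe set without a suffix. The cell type difference was 3.35 ± 0.372 (SE, limma adjusted p = 0.0107). A probe set with the same suffix gave 3.37, and the probe set without a suffix, which is dimmer, gave 1.13 and did not pass (limma adjusted p = 0.0527); the suffix marks probes that can bind several transcripts.

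Rarb encodes retinoic acid receptor beta, a textbook target of retinoic acid (chr14:16430839-17082331). It stood at 5.83 in traced and 6.28 in untraced fibroblasts after TAC, against 5.94 and 6.59 at sham, and at 5.98 after TAC and 6.43 at sham in endothelial cells. These 6 levels overlapped between the cell types and between the surgeries and lay between the 37th and 47th percentiles of their arrays. The array gives no detection call, so a low level and no transcript could not be told apart.

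**Figure D2:**
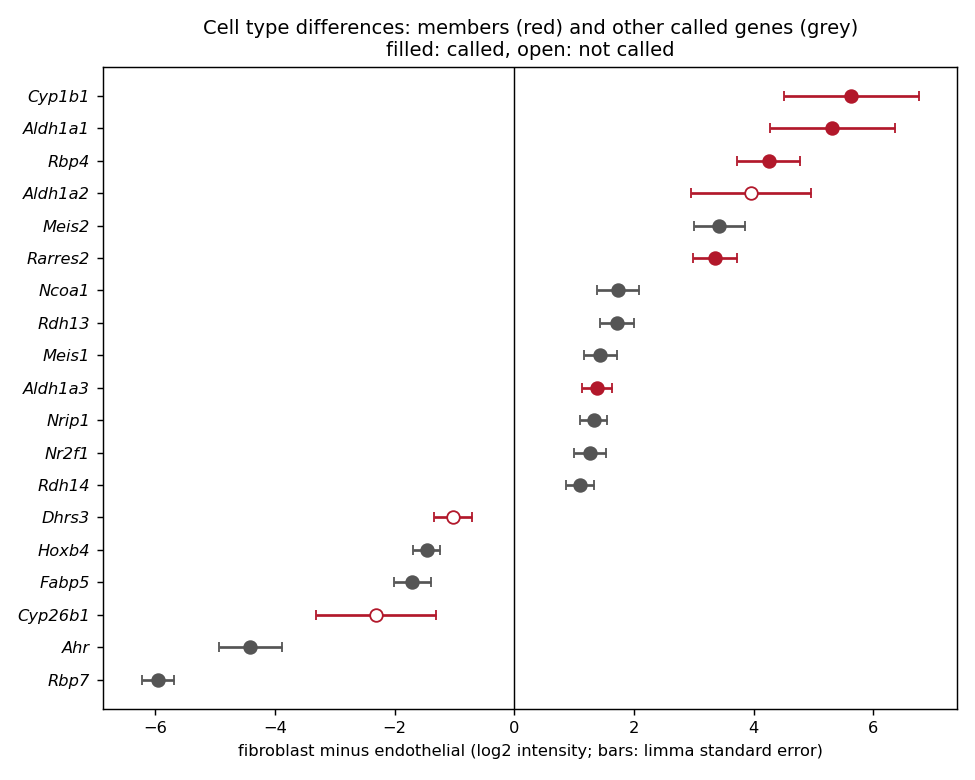
Fibroblast minus endothelial difference in log2 intensity (x axis) with the limma standard error as bars, for the 8 tested members in red and for the other genes of the retinoid lists that were called in grey, filled where the call was made and open where it was not. Cyp1b1 at 5.63 and Rbp7 at -5.96 form the ends of the plot, and Aldh1a2, Dhrs3 and Cyp26b1 are open.

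The second comparison asks how fibroblasts differed 1 week after TAC. Aldh1a2 was higher and Rbp4 lower in both fibroblast populations, by more than 2-fold. By their brightest probe sets the other 7 genes did not reach 2-fold in either population. In traced fibroblasts alone 6.01% of 11380 genes stood 2-fold or more above sham and 2.64% below it, and in untraced fibroblasts 5.04% of 11409 genes stood above and 2.98% below by that much. Aldh1a2 was 3.28-fold higher in traced and 3.34-fold higher in untraced fibroblasts. Rbp4 was 2.22-fold lower in traced and 2.56-fold lower in untraced fibroblasts. Each population has 1 array per surgery, and a gene was counted, with no test, when it differed at least 2-fold in the same direction in both populations. By this rule 1 of the 9 genes was higher, where 4.33% of 11623 genes were, and 1 was lower, where 1.79% were. A limma fit over the 4 fibroblast arrays, with surgery and tracing as terms, was added after the values had been seen. It has 1 residual degree of freedom, and it counts the arrays of a surgery as separate samples although they may share hearts. It called 5.23% of 11623 genes higher after TAC and 2.5% lower, among them Aldh1a2 (1.73 ± 0.122, SE, limma adjusted p = 0.000165) and Rbp4 (-1.25 ± 0.129, SE, limma adjusted p = 0.000779). Rarres2 also had an adjusted p under 0.05 there, with a difference under 2-fold (-0.67 ± 0.129, SE, limma adjusted p = 0.0109). Aldh1a2 and Rbp4 passed the 2-fold mark in each pair, as the rule for both populations requires. The part of the wider Gapdh gap of the untraced TAC array in these values was not tested.

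For Aldh1a2 the TAC minus sham difference was 1.72 in traced and 1.74 in untraced fibroblasts. For Rbp4 it was -1.15 in traced and -1.36 in untraced fibroblasts. As a scale, the standard deviation across 11623 genes of the gap between the responses of the 2 populations, divided by the square root of 2, was 0.230. By its brightest probe set Rarres2 was lower on both TAC arrays, by less than 2-fold, at -0.56 in traced and -0.78 in untraced fibroblasts. Its other probe set with the same suffix gave -0.75 and -1.18, beyond 2-fold in untraced fibroblasts. The dimmer Rarres2 probe set without a suffix gave -0.26 and -0.64. Aldh1a1 differed by -0.34 and -0.11, Aldh1a3 by 0.21 and 0.33, and Cyp1b1 by 0.08 and 0.21, in traced and untraced fibroblasts in this order. In the same order the other Aldh1a3 probe sets gave 0.54 and 0.67, and -0.22 and 0.26. Dhrs3 had no common direction, with 0.38 in traced and -0.13 in untraced fibroblasts. Cyp26b1 at 0.07 and 0.43 and Rarb at -0.11 and -0.31 rest on dim values.

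Markers of other cells were read beside these values. ALDH1A2 is also an epicardial enzyme, and of the 12 other epicardial and mesothelial markers Wt1 stood at 4.99 and 5.37 on the traced and untraced TAC arrays against 5.35 and 5.34 at sham, below the array medians. Upk3b differed by -0.12 in traced and 0.41 in untraced fibroblasts and lay above the median of the untraced TAC array, and Krt19 differed by -0.41 and -0.20. Upk1b, Msln, Krt8, Krt18, Lrrn4, Bnc1, Gpm6a and Muc16 lay below the median of every array, and Tbx18, which fibroblasts also express, was 0.48 higher in traced and 0.75 higher in untraced fibroblasts after TAC. The fibroblast markers had median TAC minus sham differences of -0.17 in traced and -0.18 in untraced fibroblasts. Of the 15, 2 were at least 2-fold lower in both populations and 0 were higher. The lower ones were Scara5, at -2.01 and -1.34, and Dpep1, at -1.20 and -1.10. The endothelial markers had medians of -0.71 and -0.59, and Rbp4 was lower on the endothelial arrays than on every fibroblast array. The mural markers had medians of -0.54 and -0.72, with 4 of 10 at least 2-fold lower in both populations and 1 higher. The higher one was Mcam, at 2.34 in traced and 1.67 in untraced fibroblasts. The part of mural cells in the Rbp4 difference was not tested. Of 6 listed endocardial markers 4 were detected, with medians of 0.93 in traced and 0.70 in untraced fibroblasts and 1.22 in endothelial cells. Cdh11, which fibroblasts also express, differed by 1.99 in traced and 2.03 in untraced fibroblasts, and Plvap by 1.40 and 1.11. Nfatc1 differed by 0.47 and 0.30, and Vwf by -0.41 and -0.08. Npr3 and Hapln1 lay below the median of every array, with -1.03 and -1.07 for Npr3 and 0.26 and 1.00 for Hapln1. The macrophage markers had medians of -0.48 and -0.0029, with Csf1r at 1.44 and 0.96 and Cx3cr1 at -1.55 and -1.93. The part of these cells in the Aldh1a2 difference was not tested.

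**Figure D3:**
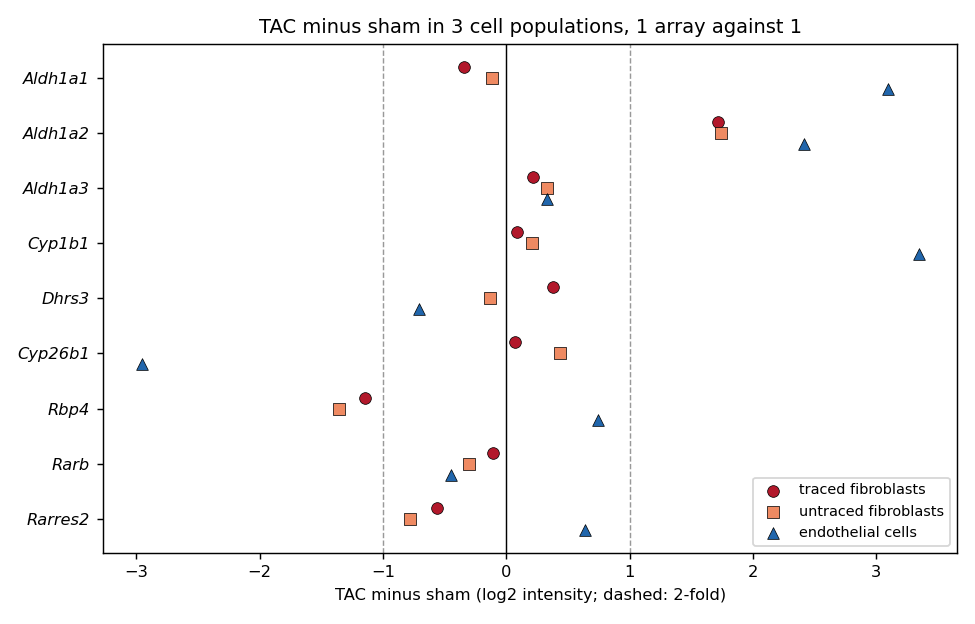
TAC minus sham difference in log2 intensity (x axis) of the 9 genes (y axis) in traced fibroblasts, untraced fibroblasts and endothelial cells, each from 1 array against 1, with dashed lines at 2-fold. The fibroblast points of Aldh1a2 lie at 1.72 and 1.74 and those of Rbp4 at -1.15 and -1.36, while the endothelial points of Cyp1b1, Aldh1a1 and Aldh1a2 lie beyond 2 on the right and that of Cyp26b1 at -2.96.

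In endothelial cells TAC went with higher Cyp1b1, Aldh1a1 and Aldh1a2 and with lower Cyp26b1. Cyp1b1 was 10.2-fold, Aldh1a1 8.56-fold and Aldh1a2 5.33-fold higher on the TAC array, and Cyp26b1 was 7.76-fold lower. By the 2-fold rule 3 of the 9 genes were higher, where 10.9% of 11157 genes were, and 1 was lower, where 1.83% were. With genes required above the upper quartile of an array the count of higher members was 0, and with the mean of all probe sets of a gene it was 2. On the log2 scale the differences were 3.34 for Cyp1b1, 3.10 for Aldh1a1, 2.41 for Aldh1a2 and -2.96 for Cyp26b1. Rbp4 at 0.74, Rarres2 at 0.64, Aldh1a3 at 0.33, Rarb at -0.45 and Dhrs3 at -0.71 stayed under 2-fold by their brightest probe sets. The other probe sets of Aldh1a3 disagreed in sign, with 1.01, just over 2-fold, and -0.18.

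The fibroblast markers moved with the 3 higher genes: their median difference between the endothelial arrays was 2.69. Col1a1 differed by 4.43, Tcf21 by 2.49 and Pdgfra by 1.10, and the part of fibroblast RNA in the values of Cyp1b1, Aldh1a1 and Aldh1a2 was not tested. After TAC these 3 genes still stood 4.04, 3.65 and 3.61 lower in endothelial cells than in the fibroblasts. Their sham levels on the endothelial array lay between the 13th and 33rd percentiles, so the sizes of the differences rest on dim values, and with 32 added to each intensity they were 2.14 for Cyp1b1, 2.24 for Aldh1a1 and 1.90 for Aldh1a2. A further Cyp1b1 probe set gave 1.67 and the dim one -0.07.

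For Cyp26b1 the markers of endothelial, mural and cardiac muscle cells were read beside the value. The endothelial markers differed by -0.79 to 0.06 with a median of -0.28, and 0 of 15 were at least 2-fold lower. The mural markers differed by -1.19 to 1.46 with a median of -0.60. The detected cardiomyocyte markers differed by -1.38 to 0.48 with a median of -1.09. The part of fewer such cells in the Cyp26b1 value of -2.96 was not tested. Cyp26b1 rests on 1 probe set, at the 55th percentile of the TAC array and the 88th of the sham array.

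**Figure D4:**
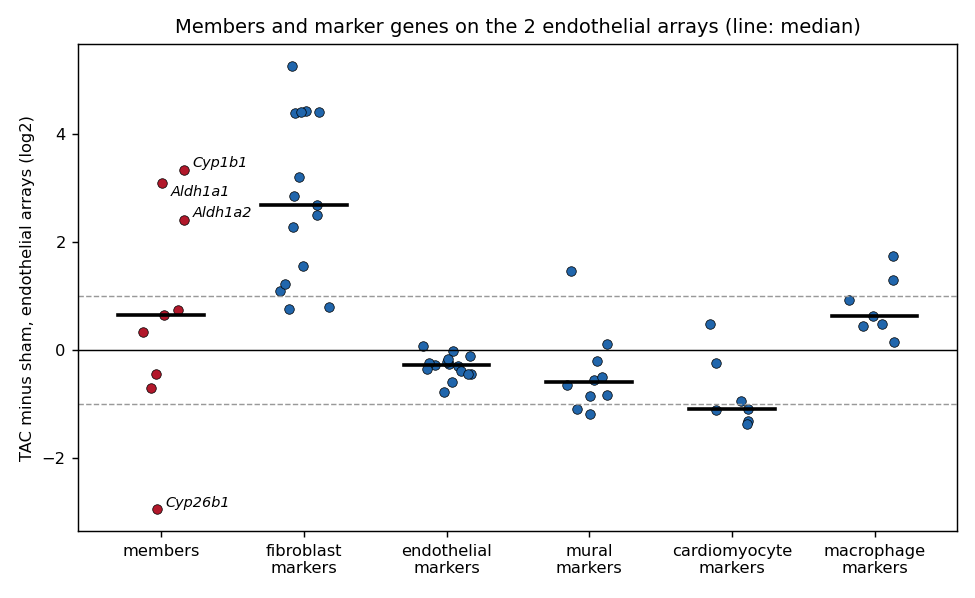
TAC minus sham difference on the 2 endothelial arrays (y axis, log2 intensity) for the 9 genes in red and for the detected members of 5 marker lists in blue, with the median of each column as a line and 2-fold as dashed lines. The fibroblast markers have a median of 2.69 and the endothelial markers one of -0.28, and Cyp26b1 lies below every marker shown.

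Traced and untraced fibroblasts were set side by side at each surgery. None of the 9 genes was at least 2-fold apart between traced and untraced fibroblasts at both surgeries, where 0.0344% of 11623 genes were higher in traced fibroblasts and 0.0344% lower, so that a count of 0 among 9 genes is also what the background gives. Rarb differed most at sham, by -0.65, and by -0.45 after TAC, on dim values. Aldh1a2 was lower in traced fibroblasts by 0.51 after TAC and 0.48 at sham, where its own TAC differences were more than 3 times as large on the log2 scale. Cyp1b1 differed by -0.07 after TAC and 0.05 at sham. In the added limma fit over the 4 fibroblast arrays 0 members were called for tracing, where 0.0086% of genes were called higher and 0.0086% lower. At an unadjusted limma p under 0.05 with a 2-fold difference 0 members passed, where 26 of 11623 genes were higher and 9 lower. Aldh1a2 had -0.49 ± 0.122 there (SE, limma adjusted p = 0.221).

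The other genes of the pathway were taken from lists by role, 70 genes of which 63 had a probe set and 38 were above an array median. Of these 38, 7 were called higher in fibroblasts by limma, where 11.5% of all tested genes were. Called higher in endothelial cells were 4, where 6.5% of all tested genes were. Their median difference was 0.32, against 0.22 for all 12257 tested genes. Of the 12 genes of transport and uptake, Rbp4 included, 6 were tested, and 2 of these were called higher in endothelial cells. Rbp7, a retinol binding protein of capillary endothelium, was 62.1-fold higher there (-5.96, standard error 0.270, limma adjusted p = 0.00382). Fabp5, which can carry retinoic acid, was 3.26-fold higher there (-1.71, limma adjusted p = 0.0287). Stra6, the RBP4 receptor, and Lrat, which stores retinol as esters, lay below the median of every array.

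Among 19 genes that interconvert retinol and retinaldehyde, 8 were tested. Of these, the reductase or dehydrogenase genes Rdh13 (1.72, limma adjusted p = 0.0231) and Rdh14 (1.10, limma adjusted p = 0.0402) were called higher in fibroblasts. Rdh10, the main retinol dehydrogenase of development, was 0.90 higher in fibroblasts and did not pass (limma adjusted p = 0.10). Of the 6 receptor genes 4 were tested and none was called by limma, with Rara, Rarg, Rxra and Rxrb between -0.20 and 0.78. Rarb and Rxrg were too dim to be tested. The co-regulator genes Ncoa1 (1.74, limma adjusted p = 0.0362) and Nrip1 (1.33, limma adjusted p = 0.0251) were called higher in fibroblasts. Of 16 other retinoid-responsive genes 10 were tested and 3 were called higher in fibroblasts. These were the homeobox genes Meis2 (3.43, limma adjusted p = 0.0137) and Meis1 (1.44, limma adjusted p = 0.032) and the nuclear receptor gene Nr2f1 (1.27, limma adjusted p = 0.0418). Hoxb4 was called higher in endothelial cells (-1.46, limma adjusted p = 0.0199). Ahr, the aryl hydrocarbon receptor that induces Cyp1b1, was called 21.3-fold higher in endothelial cells (-4.41, limma adjusted p = 0.0125), and its targets Cyp1a1, Cyp1a2 and Ahrr lay below the median of every array. Of its other targets, Tiparp was 1.24 higher in fibroblasts and did not pass (limma adjusted p = 0.0853), and Nqo1 differed by 0.0016 (limma adjusted p = 0.997). Cmklr1, the chemerin receptor, was 1.66 higher in fibroblasts and did not pass (limma adjusted p = 0.135).

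Among the 38 detected list genes, 3 were at least 2-fold higher after TAC in both fibroblast populations and 1 was lower, beside the 4.33% and 1.79% of all genes given above. Crabp1, a further retinoic acid binding protein, was 1.53 higher in untraced and 0.86 higher in traced fibroblasts. Crabp2, which delivers retinoic acid to its receptors, stood at 8.85 in traced and 8.66 in untraced fibroblasts after TAC, against 7.37 and 7.37 at sham. Cyp26a1, the other CYP26 enzyme with a probe set, stood at 7.11 and 6.78 after TAC, against 5.82 and 5.63 at sham, so the sham arrays lay below their medians. Rai14, a gene named for induction by retinoic acid, stood at 10.54 and 10.49 after TAC, against 9.01 and 9.06 at sham. Adh1, an alcohol dehydrogenase that oxidises retinol, stood at 7.90 and 6.95 after TAC, against 10.52 and 9.60 at sham, which is 6.18-fold and 6.30-fold lower. In each of the 4 genes counted, both TAC arrays lay on the same side of both sham arrays. The share of all genes with such a layout is not given here. These genes were picked for a 2-fold difference in both populations, which favours that layout. Adh1 stood at 11.15 and 11.12 on the endothelial TAC and sham arrays, above all fibroblast arrays. The endothelial markers had median TAC minus sham differences of -0.71 in traced and -0.59 in untraced fibroblasts, with Erg at 1.79 and 1.62. The part of endothelial RNA in the Adh1 difference was not tested. In endothelial cells Cmklr1 (1.67) and Meis2 (1.12) were at least 2-fold higher after TAC, and Ahr (-1.45) and Rarres1 (-1.26) lower.

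**Figure D5:**
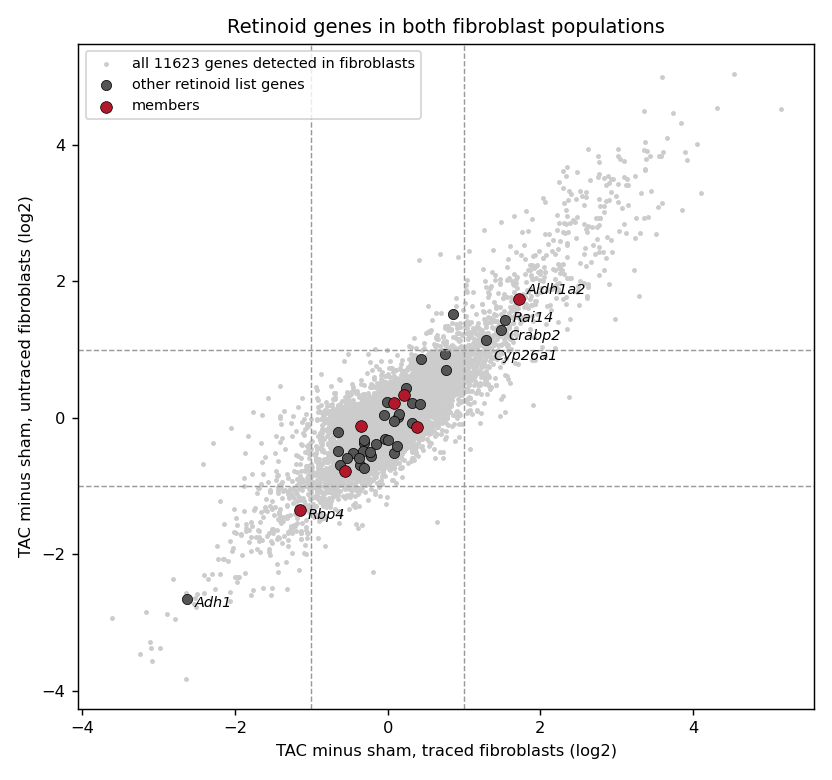
TAC minus sham difference in traced fibroblasts (x axis) against that in untraced fibroblasts (y axis), both in log2 intensity, for 11623 genes in pale grey, the other genes of the retinoid lists in dark grey and, in red, the 7 members above an array median in fibroblasts (not Cyp26b1 or Rarb), with dashed lines at 2-fold. Aldh1a2, Crabp2, Cyp26a1 and Rai14 lie beyond 2-fold at the upper right, and Rbp4 and Adh1 at the lower left.

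The promoters of Rarb, both CYP26 genes and Aldh1a2 are shown because retinoic acid receptors act at paired hexamers near such starts, and because these are the response, breakdown and synthesis genes described above. Each window runs from 250 bases before to 50 after a RefSeq start (GRCm38.p6), 5′ to 3′ on the strand of the gene. It was searched on both strands for 2 hexamers in the same orientation 5 bases apart, the DR5 arrangement, and a match is in capitals. A hexamer counted when it read AGGTCA, the receptor consensus. It also counted when it read AGTTCA, a common variant. The third accepted form was GGGTCA. The last accepted form was GGTTCA, again a known variant. The windows are chr14:16575427-16575726 (minus strand) for Rarb, chr19:37697558-37697857 (plus strand) for Cyp26a1, chr6:84593761-84594060 (minus strand) for Cyp26b1 and chr9:71215539-71215838 (plus strand) for Aldh1a2.
Rarb: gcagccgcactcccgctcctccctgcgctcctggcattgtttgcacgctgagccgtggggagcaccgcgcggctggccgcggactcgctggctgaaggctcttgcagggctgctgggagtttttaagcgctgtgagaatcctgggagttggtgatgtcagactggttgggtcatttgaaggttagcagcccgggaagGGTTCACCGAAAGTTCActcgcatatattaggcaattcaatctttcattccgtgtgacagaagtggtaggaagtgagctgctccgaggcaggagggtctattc
Cyp26a1: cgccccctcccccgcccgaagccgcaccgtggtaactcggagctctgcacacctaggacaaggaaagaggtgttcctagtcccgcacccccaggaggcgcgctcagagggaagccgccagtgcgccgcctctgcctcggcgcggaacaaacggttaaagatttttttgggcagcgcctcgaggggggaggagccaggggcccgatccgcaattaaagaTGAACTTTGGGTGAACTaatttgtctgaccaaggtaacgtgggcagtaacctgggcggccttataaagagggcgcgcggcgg
Cyp26b1: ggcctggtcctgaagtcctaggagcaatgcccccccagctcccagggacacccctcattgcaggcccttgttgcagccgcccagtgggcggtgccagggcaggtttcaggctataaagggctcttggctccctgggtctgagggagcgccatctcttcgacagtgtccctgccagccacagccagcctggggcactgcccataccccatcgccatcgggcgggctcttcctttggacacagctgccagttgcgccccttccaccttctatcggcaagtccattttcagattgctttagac
Aldh1a2: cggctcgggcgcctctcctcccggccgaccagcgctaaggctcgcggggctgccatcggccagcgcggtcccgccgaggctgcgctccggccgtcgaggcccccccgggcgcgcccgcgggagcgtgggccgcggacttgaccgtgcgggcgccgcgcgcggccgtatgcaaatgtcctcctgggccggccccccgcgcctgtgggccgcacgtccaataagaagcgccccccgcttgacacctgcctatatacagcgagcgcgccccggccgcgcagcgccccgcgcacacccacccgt

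The Rarb window held a match from 53 to 37 bases before the start, on the strand of the gene. The Cyp26a1 window held one from 32 to 16 bases before the start, on the opposite strand, so it reads as its reverse complement above. Of 32851 promoter windows 32 held a DR5 match, or 0.0974%. The table had 11 windows for 7 of the 9 members. The Rarb element is a textbook example of this arrangement, so its match was known beforehand and is shown as a description. Cyp26a1 is not a member, its window was added by name, and its match is likewise shown as a description. With a spacing of 1 base 0.222% of all windows matched and with 2 bases 0.268%, and 0 of the 11 member windows did. Cyp26a1 was at least 2-fold higher on both fibroblast TAC arrays, the only arrays where it lay above the median. On the untraced TAC array it stood at 6.78, against an array median of 6.74. Rarb lay below the median of every array and did not reach 2-fold in fibroblasts. A link of these values to the matches was not tested. The Cyp26b1 and Aldh1a2 windows had no such letters, and sites elsewhere were not searched.

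The genes whose pattern over the 6 arrays was most like each member were picked by Pearson correlation among detected genes whose SD over the arrays was at least 0.5 times that of the member, as a description of 6 arrays that share 2 cell types and 2 surgeries. Aldh1a1 was closest to Glipr2 and the ferroxidase gene Cp, with correlations of 0.9996 and 0.9995 among 1113 genes. Aldh1a2 was closest to the engulfment receptor gene Megf10 and to Wls, which carries Wnt proteins to the surface (0.9982 and 0.9978 among 1655 genes). Cyp1b1 was closest to Lhfp and to the prostacyclin synthase gene Ptgis (0.9996 each among 1004 genes). Rbp4 was closest to A4galt and Negr1 (0.9997 and 0.9996), Rarres2 to Rgma and the complement gene C1ra (0.9993 and 0.999), and Aldh1a3 to Ssr4 and Ncam1 (0.9983 and 0.9977). Dhrs3 was closest to Scai and Gm12758 (0.9989 and 0.9977), and Cyp26b1 to Batf2 and Tmprss2 (0.9919 and 0.9772). Megf10 shared the layout of Aldh1a2: it stood at 9.61 and 9.90 in traced and untraced fibroblasts after TAC, against 7.73 and 8.01 at sham.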

How the data were processed

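The authors deposited an intensity per probe set, on a linear scale, for 45101 probe sets on 6 arrays, made with RMA (background correction, normalization between arrays, summary per probe set), per the submitters' processing notes; its version is not given in the sources used here. That the scale is linear was read from the values, 3.82 to 37205. Array medians were 106.6 to 115.2 and no pair of arrays was identical. RMA shrinks differences of dim probe sets, and 1 array per group limits the precision.

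Log2 of the intensity was taken with no further normalization. Platform gene names were updated by gene identifier (99.4% found), 34958 probe sets had exactly 1 symbol, and 18194 genes were kept. The cell type fit used limma 3.58.1 (lmFit, eBayes) in R 4.3.3 and was tested on simulated data. Its p-values reflect the spread between these arrays alone, surgery included, and that spread may be technical. The members, lists and tests were chosen with earlier results of these data known. The genes named are the members, list genes that were called or differed 2-fold as described, and the 2 genes most like each member; further list genes were chosen after their values were seen. Alternatives were probe set choice, a pseudocount of 32, median centring, quantile normalization, the filter on dim genes, surgery as a block, single arrays and leaving out each array, and, chosen after seeing the data, limma over the 4 fibroblast arrays. Promoter sequences are from RefSeq, GRCm38.p6.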

Additional observations from a re-analysis of the deposited data

Results flagged for a closer look

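For Aldh1a1, Cyp26b1, Rbp4 and Rarres2 the TAC minus sham difference in both fibroblast populations had the opposite sign to that in endothelial cells. No size was required for this, and the share of all genes with such signs is not given here. The values of -0.11 for Aldh1a1 in untraced and 0.07 for Cyp26b1 in traced fibroblasts lie under the 0.230 used above as a scale. For Aldh1a1 it was 3.10 in endothelial cells and -0.34 and -0.11 in traced and untraced fibroblasts. For Cyp26b1 it was -2.96 in endothelial cells and 0.07 and 0.43 in the fibroblasts. For Rbp4 it was 0.74 in endothelial cells and -1.15 and -1.36 in the fibroblasts. For Rarres2 it was 0.64 in endothelial cells and -0.56 and -0.78 in the fibroblasts; the opposite sign rests on suffixed probe sets, since the probe set without a suffix gave -0.18 in endothelial cells, the same sign as in the fibroblasts. The difference between the cell types was not tested, and none of these genes differed at least 2-fold in opposite directions. The fibroblast markers, higher on the endothelial TAC array by a median of 2.69, moved with Aldh1a1, Rbp4 and Rarres2, and their part was not tested.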

How the results depend on the processing

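No paired analysis was possible because every group has 1 array with the same replicate number, which pairs nothing; surgery as a block is the fit paired by surgery. Of values under 2-fold, 2 changed sign: Rarres2 in endothelial cells (-0.18 without suffixed probe sets, 0.64 before) and Rarb in traced fibroblasts (0.01 after quantile normalization, -0.11 before); no other sign changed in the alternatives run. In all, 304 values of single genes stayed, 21 moved, 10 gained and 3 lost the call. For the limma fit, surgery as a block called 2298 genes higher in fibroblasts and single arrays 2211, against 1415; members called lower were 1 with the block and 2 with single arrays, against 0. Leaving out each array gave 654 to 1724 genes and 3 to 6 members higher, and 445 to 818 genes and 0 to 2 members lower (797 genes in all arrays). The low ends, except that of members lower, came without the endothelial sham array, and 2 members lower without the endothelial TAC array. Aldh1a2 also gained its call with 32 added (3.57, limma adjusted p = 0.0472). With genes required above the upper quartile, fewer genes could pass: TAC higher counts were 256 in both fibroblast populations (503 before), 300 in traced (684), 269 in untraced (575) and 618 in endothelial cells (1213, members 0 against 3), and lower counts 161 in traced (300), 214 in untraced (340) and 132 in endothelial cells (204). Fibroblast higher counts were 1313 after TAC (2133) and 1873 at sham (2816). At 1.5-fold, 1035 genes were higher and 565 lower in both fibroblast populations, and 340 were lower in untraced fibroblasts alone (208 in both). Without suffixed probe sets 1 member was lower at sham (2 before). Traced over untraced higher genes, 4 before, were 2 without suffixed probe sets, 2 with 32 added 1 after median centring and 1 in the added limma fit over the 4 fibroblast arrays; lower genes, also 4, were 0 with the mean of probe sets, 0 with 32 added, 0 above the upper quartile, 1 in the added fit and 7 with no filter. With 1 array per group, array number limits all TAC values.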
